A study of Capra hircus with 12 samples.

Results

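In the testis of black goats (Capra hircus), RNA was read at the loci that carry the highest numbers in the assembly used by the study. The loci were chosen by their identifier and selected on measured values only through presence in the tables. A locus entered when its identifier had the form MSTRG.n with n above that of MSTRG.404906 (the last locus under the cut, the first above it being MSTRG.405027), and when its FPKM (fragments counted per kilobase of the locus and relative to the depth of the library) was above 0 in at least 2 of the 11 tables. The number cut left 504 loci, and 17 of these had a value in 1 library. The other 487 are called the high-number loci here, and they were 2.02% of the 24116 loci listed. Their numbers ran from 405027 to 415183, the highest number in the tables. The median gap between neighbouring numbers was 13, and 59 pairs carried consecutive numbers.

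All samples were labelled with the WT genotype, and the labels name the 4 ages neonatal, prepuberty, puberty and postpuberty. The sample titles carry D3 for neonatal, D30 for prepuberty, D90 for puberty and D180 for postpuberty. There were 3 libraries each at the neonatal, prepuberty and postpuberty ages and 2 at puberty (replicates 2 and 3), because puberty replicate 1 was not analysed here. Nothing in the labels says that the replicates came from separate animals, so the spread behind each p-value is that between these samples, which may be technical.

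StringTie gives MSTRG identifiers to the loci it builds from aligned reads. Such a locus can be an annotated gene or a transcribed stretch outside the annotation, and it can code for a protein or not. In mammals the testis at birth holds supporting cells and germ cell precursors, and around puberty the germ cells enter meiosis and develop into spermatids and sperm. The testis is known for transcribing a large part of the genome, long non-coding RNAs included, once these later germ cells are present. None of the identifiers (0) matched a gene of the RefSeq table for assembly ARS1.2, so the high-number loci have no symbol, position, strand or sequence here, and the tissue label could not be checked against marker genes.

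Library size, read from the steps in the values, was lowest in neonatal replicate 3 (19128357 reads) and highest in puberty replicate 2 (35614224). The median implied length was 1019 bases for the high-number loci (quartiles 441.5 and 2214.5) against 1343 bases for all listed loci. At that length an FPKM of 1 stood for 19.5 to 36.3 reads. Floors for groups without a read, given below, are set at 3 reads over the group and cover counting error only.

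The values just inside and just outside the rule are given once, with no test. Below the number cut, MSTRG.404900 had mean FPKM of 0 in neonatal libraries, 0.520 in prepuberty, 0.0423 in puberty and 0.111 in postpuberty. MSTRG.404901 had 0, 1.32, 0.315 and 2.24 at the same ages, and MSTRG.404906 had 0.382, 0.0610, 0.571 and 0.699. All 3 were low. Above the cut, MSTRG.405027 had mean FPKM of 0, 0.0438, 0 and 0.262, MSTRG.405036 had 0.817, 0.403, 0.0291 and 0.0150, and MSTRG.405046 had 0, 0, 0.124 and 0.783. At the top of the numbering, MSTRG.415169 had 1.12, 0.287, 0.208 and 0.197, MSTRG.415180 had 0.490, 0.0637, 0 and 0, and MSTRG.415183 had 0.0789, 0.290, 0.0655 and 0.0498. The numbers at both ends thus carry loci of low level. Over all libraries MSTRG.405027 had 8 reads, MSTRG.405046 18, MSTRG.415180 7 and MSTRG.415183 8, too few to read a course from. MSTRG.405036 had 1413 reads and MSTRG.415169 243, both with their highest mean in neonatal libraries. On the side of the presence rule, 14 high-number loci had a value in exactly 2 libraries, with FPKM of at most 1.47, and the 17 loci left out reached 6.26 in their 1 library. For 9 of the 14, both libraries were of puberty or postpuberty age, as was the library of 11 of the 17. The lowest numbers among the 14 were MSTRG.405243, MSTRG.408849 and MSTRG.409100, and among the 17 they were MSTRG.405393, MSTRG.405577 and MSTRG.408458.

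More of the high-number loci were detected in the older testes, as in the whole table. FPKM was above 0 at 304.3 ± 4.93 of them (SD, n = 3) in neonatal libraries, 321.7 ± 10.7 (n = 3) in the prepuberty set, 408.5 ± 3.54 (n = 2) in puberty and 415.3 ± 12.5 (n = 3) in the postpuberty set. The lowest older library held 401 and the highest younger library 334, so the younger and older ages did not overlap. As shares these are 62.5%, 66.1%, 83.9% and 85.3% of the high-number loci, where 65.4%, 65.6%, 88.0% and 89.8% of all listed loci had a value, so the step is that of the table and not a result about these loci. The older libraries were also the larger ones, and the part of library size in these counts was not tested. Of the high-number loci, 177 (36.3%) had a value in all 11 libraries, against 43.6% of all listed loci.

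At the higher level of FPKM of at least 1, the same count showed no such step. It was 25.3% ± 0.543 (SD, n = 3) of the high-number loci in neonatal libraries, 24.4% ± 1.49 (n = 3) in the prepuberty set, 22.6% ± 2.61 (n = 2) in puberty and 25.8% ± 2.20 (n = 3) in the postpuberty set. Of all listed loci the shares were 24.7%, 20.2%, 24.2% and 34.8%, so in postpuberty libraries the high-number loci lay below the whole table. The difference between the loci and the whole table was not tested. In tissue RNA, fewer cells of a type and less RNA per cell cannot be told apart.

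**Figure D1:**
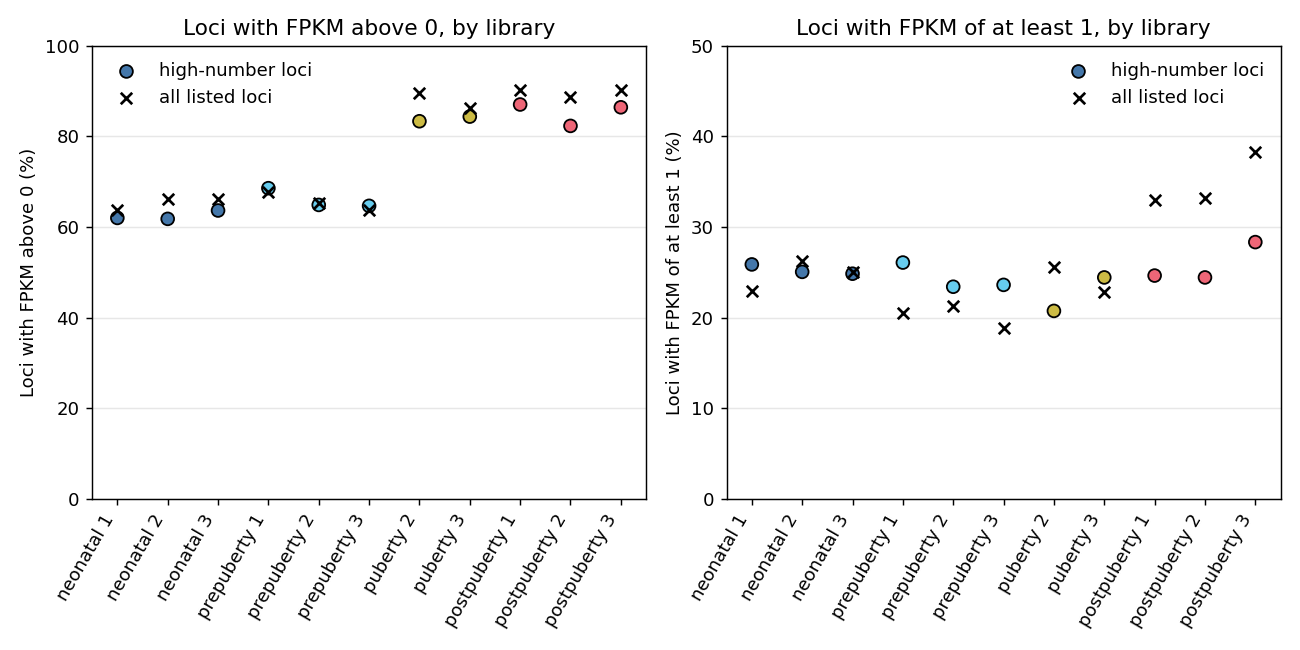
Share (%) of the 487 high-number loci (circles, coloured by age) and of all 24116 listed loci (crosses) with FPKM above 0 (left) and of at least 1 (right), one column per library. Above 0 the circles step up from between 61.8% and 68.6% in younger libraries to between 82.3% and 87.1% in older ones, and at FPKM of at least 1 they stay between 20.7% and 28.3%.

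A pair of loci held a large part of the signal, most of it in neonatal libraries. The 2 with the highest mean level, MSTRG.407379 and MSTRG.412719, made up 71.4% ± 6.65 (SD, n = 3) of the summed FPKM of the high-number loci in neonatal libraries, 43.0% ± 4.90 (n = 3) in the prepuberty set, 39.5% ± 15.4 (n = 2) in puberty and 35.0% ± 8.03 (n = 3) in the postpuberty set. MSTRG.407379 (implied length 1284 bases) stood at 1399, 854 and 279 FPKM in neonatal replicates 1 to 3, at 1112, 474 and 513 in prepuberty, at 499.7 and 378 in puberty replicates 2 and 3, and at 160.0, 313 and 539 in postpuberty. Its libraries overlapped between every pair of ages, and it was not called over the ages (limma F test, adjusted p = 0.225).

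MSTRG.412719 (1414 bases) stood at 509.8, 996 and 1103 FPKM in neonatal libraries, at 164, 59.9 and 537 in prepuberty, at 384 and 43.6 in puberty and at 418, 229 and 417 in postpuberty. The neonatal libraries lay above the 3 postpuberty libraries, but prepuberty replicate 3 reached into the neonatal range. The F test gave an adjusted p of 0.0606 with limma, so no change was called.

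The next loci by mean level were far below, at a mean over the 4 ages of 79.6 FPKM for the first of them against 423 for MSTRG.412719. MSTRG.411472 (3684 bases) ranged from 2.90 FPKM in neonatal replicate 2 to 203 in prepuberty replicate 1, and was 3.17-fold higher in postpuberty (118 ± 41.4, SD, n = 3) than in neonatal libraries (37.3 ± 30.3, n = 3), with a limma adjusted p of 0.0302, but was not called over the 4 ages (limma F test, adjusted p = 0.0916). MSTRG.413436 ranged from 12.8 FPKM in neonatal replicate 2 to 168 in postpuberty replicate 2. MSTRG.406436 ranged from 1.24 in neonatal replicate 2 to 187 in postpuberty replicate 2. Within neonatal libraries alone MSTRG.406436 stood at 2.55, 1.24 and 38.5 FPKM, and neither it nor MSTRG.413436 was called by the F test (limma adjusted p = 0.289 for MSTRG.406436 and 0.198 for MSTRG.413436).

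MSTRG.411466, MSTRG.411157 and MSTRG.413127, also near the top, were steadier. MSTRG.411466 (1190 bases) stood at 38.6, 44.2 and 51.0 FPKM in neonatal libraries, 56.4, 54.0 and 55.4 in prepuberty, 28.7 and 22.4 in puberty and 25.2, 31.0 and 21.5 in postpuberty. The puberty libraries lay below all 3 prepuberty libraries, a fall of 2.16-fold (limma adjusted p = 0.000339). MSTRG.411157 and MSTRG.413127 also stood lower at puberty, by 1.61-fold and 1.77-fold, with limma adjusted p of 0.00983 and 0.0166, but their changes of -0.68 and -0.79 on the log2(FPKM + 1) scale did not reach the size of 1 needed for a call. MSTRG.406970 was not steady and ran from 2.25 to 101 FPKM over the 11 libraries. It stood 3.03-fold higher in postpuberty (73.9 ± 41.5 FPKM, n = 3) than in neonatal libraries (24.4 ± 35.0, n = 3), at a limma adjusted p of 0.037. Its libraries of both ages overlapped, and the F test did not call it (limma adjusted p = 0.163).

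**Figure D2:**
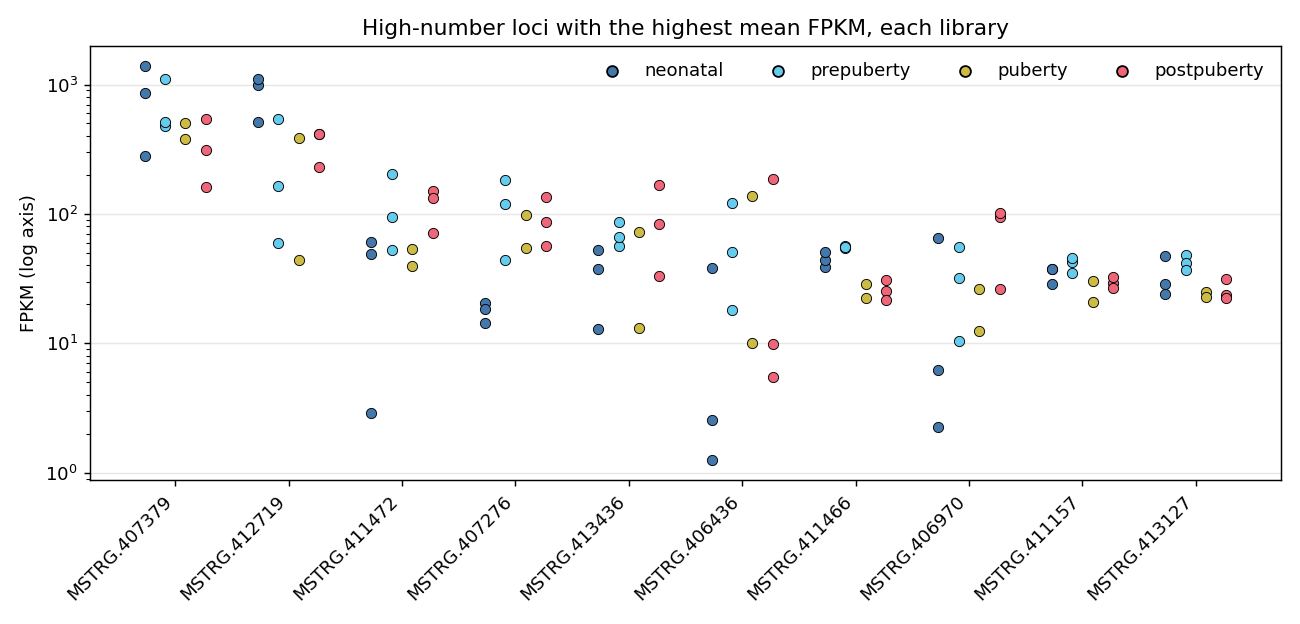
FPKM (log axis) of the 10 high-number loci with the highest mean level, one point per library, coloured by age (3 neonatal, 3 prepuberty, 2 puberty, 3 postpuberty). MSTRG.407276 and MSTRG.411466 show ages that stand apart, while MSTRG.406436 runs from 1.24 to 187 with every age spread out.

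The spread between libraries of 1 age was wide at more of these loci than in the table as a whole. Among high-number loci that reached 5 FPKM in some neonatal library, 6 of 35 (17.1%) had a highest neonatal library at least 5 times the lowest, against 3.16% of all listed loci with that level. In prepuberty it was 7 of 41 (17.1% against 2.82%), in puberty 8 of 41 (19.5% against 4.44%) and in postpuberty 9 of 52 (17.3% against 4.78%). These shares were not tested against each other. MSTRG.406436 met the criterion at each age, with 18.1, 50.9 and 121 FPKM in prepuberty and 9.87, 187 and 5.51 in postpuberty replicates. At the other end, MSTRG.414990, chosen after its values were seen, lay between 6.33 and 11.1 FPKM in all 11 libraries, which was the smallest ratio of highest to lowest library (1.75) among the 32 high-number loci with at least 1 FPKM in every library.

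Changes between ages were tested with limma on log2(FPKM + 1) over all 12954 listed loci with at least 1 FPKM in at least 2 libraries. Of the high-number loci, 230 passed that filter and 257 did not. The untested ones never exceeded 2.99 FPKM, and 103 of them had their highest mean in postpuberty, 58 in neonatal libraries, 50 in puberty and 46 in prepuberty. A locus was called when its adjusted p was under 0.05 and its change was at least 1 on the log2 scale, with the p adjusted over all tested loci. Every locus that passes this filter also meets the presence rule, so that rule left no tested locus out. Fold changes below are ratios of mean FPKM, and log2 changes are on the log2(FPKM + 1) scale, on which low loci appear to change less than they do.

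From neonatal to prepuberty, 16 of the 230 tested high-number loci rose and 4 fell. The 16 are 6.96% of those tested, where 0.826% of all tested loci were called higher, and the 4 are 1.74%, where 1.24% of all were called lower. High-number loci were 1.78% of the loci tested and 15.0% of the 107 called higher. In the 10000 numbers just below the cut, 4 of 222 tested loci were called higher and 4 lower. No test compared these shares. Rises were 80.0% of the calls as deposited, 93.3% after median of ratios scaling (14 rises, 1 fall) and 92.9% after quantile normalization (13 rises, 1 fall).

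The largest rise was of MSTRG.410845 (implied length 527 bases). It had no read in the 3 neonatal libraries, then 35.7, 12.5 and 38.7 FPKM in prepuberty, 36.4 and 18.6 in puberty and 23.6, 19.8 and 19.4 in postpuberty. The neonatal libraries were at 0 and the lowest library of any later age at 12.5, so prepuberty was at least 302-fold higher than a floor of 3 reads over the neonatal group. The log2 change was 4.75 (SE 0.37, limma adjusted p = 0.000237), and the locus did not change at the later steps (limma adjusted p = 0.989 and 0.73).

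MSTRG.406978 (9875 bases) stood at 1.21, 0.949 and 0.916 FPKM in neonatal libraries, 66.6, 14.0 and 53.8 in prepuberty, 29.9 and 17.7 in puberty and 21.5, 27.6 and 26.5 in postpuberty. All later libraries lay above the neonatal ones, with a 43.7-fold rise at prepuberty (log2 change 4.24, SE 0.45, limma adjusted p = 0.000782) and means of 23.8 and 25.2 afterwards. MSTRG.407276 (4085 bases) had 20.6, 18.6 and 14.4 FPKM in neonatal libraries, 182, 43.7 and 119 in prepuberty, 98.8 and 54.3 in puberty and 56.7, 86.4 and 134 in postpuberty. It was likewise higher in each later library than in any neonatal one, 6.44-fold at prepuberty (limma adjusted p = 0.0113).

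A second course was a peak at prepuberty. MSTRG.408422 (993 bases) stood at 0.245, 0.0513 and 0.105 FPKM in neonatal libraries, 27.4, 7.11 and 33.5 in prepuberty, 0.254 and 1.17 in puberty and 0.319, 0.179 and 0.599 in postpuberty. Only the prepuberty libraries were above 1.17, with 1798 reads over that group against 8 in the neonatal one. It rose 169-fold (log2 change 4.14, SE 0.44, limma adjusted p = 0.000782) and fell 31.9-fold at puberty (log2 change -3.60, SE 0.50, limma adjusted p = 7.83e-05). MSTRG.413876 (417 bases) stood at 1.17, 0.244 and 0.627 FPKM in neonatal libraries, 11.7, 3.10 and 70.1 in prepuberty, 6.46 and 13.0 in puberty and 5.32, 9.72 and 8.71 in postpuberty. Prepuberty replicate 3 was far above the others of its age, and the rise of 41.6-fold had a limma adjusted p of 0.0277, with no call at puberty (0.541).

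Of the 16 that rose, 8 fell again at puberty and 8 were not called there. Of the 107 rises among all tested loci, 61 fell again at puberty with no later call. Another 38 were called at neither later step, so this split is not a result about the high-number loci. The 8 that fell again were MSTRG.406331, MSTRG.408422, MSTRG.412121, MSTRG.412865, MSTRG.413582, MSTRG.413732, MSTRG.413733 and MSTRG.414056. In the whole span, 8 of the 16 were higher in postpuberty than in neonatal libraries and 1, MSTRG.414056, was lower. The matching counts for the 107 rises are not given here. MSTRG.414056 (512 bases) stood at 19.1, 24.8 and 30.4 FPKM in neonatal libraries, 49.2, 61.6 and 49.0 in prepuberty, 11.2 and 4.86 in puberty and 4.95, 3.68 and 3.48 in postpuberty. The prepuberty libraries were the highest, the neonatal ones next, and the older ages lowest, with overlap only between puberty and postpuberty.

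Several of the 8 were found by their course, after the values were seen. MSTRG.406331 (887 bases) had 1.47, 1.33 and 1.81 FPKM in prepuberty, 0.384, 0 and 0 in neonatal and no read at all in the 5 older libraries. Its level at prepuberty was at least 31.9-fold above a floor of 3 reads over the puberty group. MSTRG.413582 (3117 bases) stood at 12.4, 7.76 and 12.0 FPKM in neonatal libraries, 31.2, 28.0 and 33.0 in prepuberty, 11.5 and 8.81 in puberty and 6.06, 5.70 and 5.12 in postpuberty. The 3 prepuberty libraries lay close together and above every other library.

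All 16 had neonatal and prepuberty libraries that did not overlap, a separation that the call itself favours. Of the 16, 3 (MSTRG.410845, MSTRG.410846 and MSTRG.413732) had no neonatal read. Prepuberty replicate 2 was the lowest of its age at 14 of the 16, against 26.0% of the 4775 tested loci with a prepuberty mean of at least 1 FPKM. Replicate 3 was the highest at 10 and replicate 1 at 5. The summed FPKM of the 16 was 62.2 to 80.6 in neonatal libraries, 563 in prepuberty replicate 1, 245 in replicate 2 and 576 in replicate 3, 230.5 and 143 in puberty and 143 to 303 in postpuberty libraries. Prepuberty replicate 2 thus lay between the postpuberty libraries in this sum. Without it 16 rises were called, 15 of them among these 16. The 16 lay in 7 of the 11 blocks of 1000 numbers, counted from the cut, with 4 between MSTRG.412121 and MSTRG.412966 and 4 between MSTRG.413582 and MSTRG.413876.

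**Figure D3:**
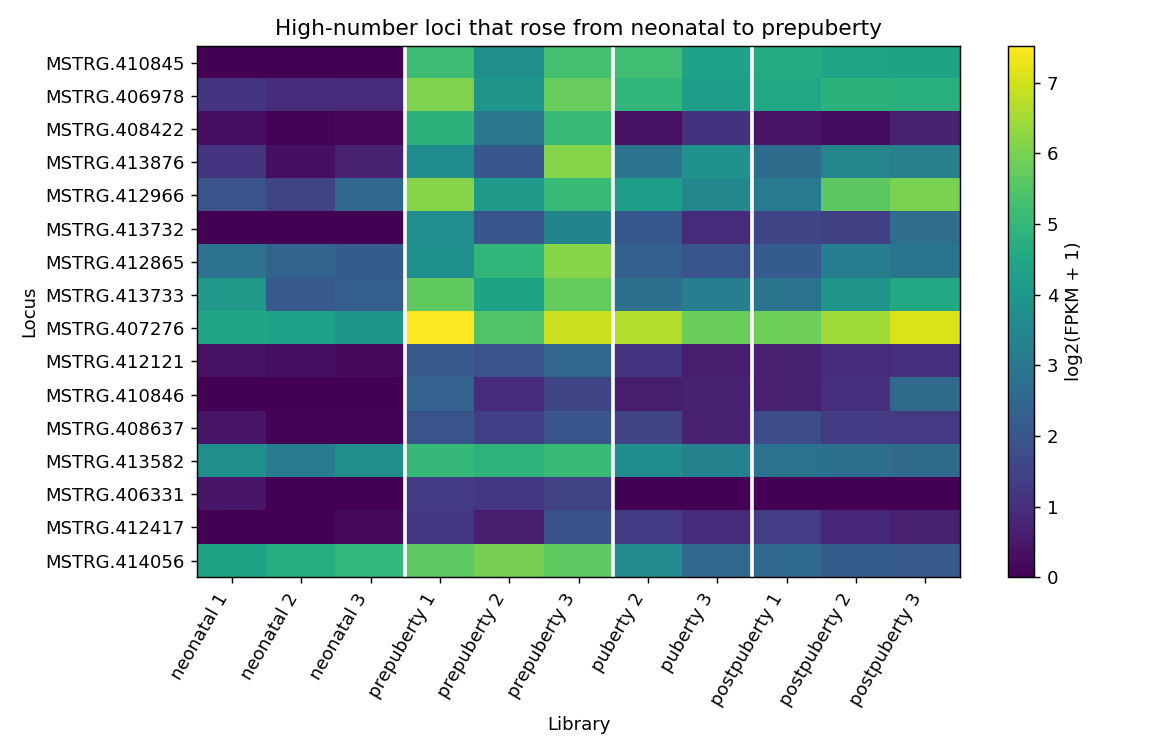
log2(FPKM + 1) of the 16 high-number loci that rose from neonatal to prepuberty, one row per locus in order of log2 change and one column per library, with white lines between ages. Rows such as MSTRG.408422 are bright in prepuberty only, while MSTRG.410845 and MSTRG.406978 stay bright to postpuberty, and prepuberty 2 is the palest prepuberty column in 14 rows.

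The 4 falls at prepuberty had separate courses afterwards. MSTRG.408867 (987 bases) stood at 16.1, 18.5 and 26.9 FPKM in neonatal libraries, 3.74, 5.68 and 1.52 in prepuberty, 0.370 and 0.381 in puberty and 0.204, 0.504 and 0.134 in postpuberty. It fell 5.62-fold at prepuberty (limma adjusted p = 0.00211) and 9.71-fold more at puberty (limma adjusted p = 0.00132), with no overlap at either step. MSTRG.407039 (203 bases) fell 4.52-fold, from 2.56 ± 0.480 to 0.567 ± 0.345 FPKM (n = 3 each), and then rose 15.7-fold to 8.93 ± 1.09 (n = 2). It was the only tested high-number locus called lower at prepuberty and higher at puberty. Of all tested loci, 3 had this course with no later call. MSTRG.408015 fell from 1.78 ± 0.256 to 0.229 ± 0.199 FPKM (n = 3 each) and MSTRG.410356 from 3.48 ± 0.523 to 1.17 ± 0.700. By their implied lengths, the prepuberty levels of MSTRG.407039 and MSTRG.408015 rest on few reads.

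These calls depended on the libraries fitted together. With the neonatal and prepuberty libraries alone, 1 of the 16 rises (MSTRG.412121) and none of the falls (0) passed in limma (54 of the 230 had an unadjusted p under 0.05), against 11 rises among all tested loci. For the 54, the matching count over all tested loci is not given here. The rises called were 31 as TPM (994 of all tested loci), 10 without neonatal replicate 2 and 10 without prepuberty replicate 1. MSTRG.413876 lost its call without neonatal replicate 2 (limma adjusted p = 0.085), neonatal replicate 3 (0.0698) or prepuberty replicate 1 (0.0641), MSTRG.407276 without prepuberty replicate 3 (0.0525), MSTRG.407039 without prepuberty replicate 1 (0.0737) or 3 (0.0838) and MSTRG.410356 without prepuberty replicate 2, by its change of -0.86. The call of MSTRG.414056 was lost without neonatal replicate 1 or 2 and without each prepuberty replicate, at limma adjusted p from 0.0613 to 0.073. MSTRG.407039 also lost its call after median of ratios scaling (limma adjusted p = 0.0553) and by voom (limma adjusted p = 0.0608). After quantile normalization MSTRG.407039, MSTRG.408015 and MSTRG.410356 lost theirs by their changes of -0.94, -0.94 and -0.90.

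From prepuberty to puberty, rises and falls were nearly equal in number among the high-number loci. There were 45 rises (19.6% of those tested, where 23.7% of all tested loci were called higher) and 42 falls (18.3%, where 13.0% of all were called lower). The median log2 change of the 230 was -0.36, against 0.26 over all tested loci. In the 10000 numbers below the cut, 16 of 222 tested loci were called higher and 43 lower. Again no test compared the lists. The ratio of rises to falls moved with the scaling: 51.7% of the calls were rises as deposited, 75.0% after median of ratios scaling (60 rises, 20 falls) and 37.6% after quantile normalization (41 rises, 68 falls).

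The 4 largest rises were of loci with next to no reads before puberty. MSTRG.405255 (543 bases) was without a read in the 6 younger libraries and had 41.5 and 69.0 FPKM in puberty and 43.0, 70.0 and 61.9 in postpuberty libraries. Puberty stood at least 791-fold above a floor of 3 reads over the prepuberty group (log2 change 5.77, SE 0.23, limma adjusted p = 8.73e-09), and the 5 older libraries overlapped between ages. MSTRG.409131 (638 bases) had no neonatal read, 0.117, 0 and 0 FPKM in prepuberty, 37.5 and 43.2 in puberty and 43.6, 31.7 and 55.0 in postpuberty. Its 2 prepuberty reads both fell in replicate 1, against 1805 reads at puberty (log2 change 5.31, SE 0.19, limma adjusted p = 4.78e-09).

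MSTRG.408154 (608 bases) had 1 read in prepuberty replicate 1 and none in the other 5 younger libraries, then 16.3 and 21.2 FPKM in puberty and 20.6, 25.5 and 24.8 in postpuberty (limma adjusted p = 2.41e-09). MSTRG.411926 (758 bases) had 1 read in neonatal replicate 1 and 1 in prepuberty replicate 1, then 14.9 and 20.2 FPKM in puberty and 16.4, 32.9 and 13.1 in postpuberty (limma adjusted p = 6.74e-07). In these 4 loci the older ages overlapped each other and stood clear of every younger library.

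The 45 rises had, as a set described without a test, a median prepuberty mean of 0.0182 FPKM and a median puberty mean of 2.80. Of them 11 had no read in the 6 younger libraries, and prepuberty replicates 1, 2 and 3 held a read at 25, 17 and 15 of the 45. All 45 had puberty libraries above every prepuberty library, a separation that the call itself favours and that adds no support to it. The share of all called loci separated in this way is not given here, for this step or the others. These counts of separation are thus not results about the high-number loci. Of the 45, 42 were also called higher in postpuberty than in neonatal libraries. Counts to set beside the 11 and the 42 are not given here for the 3067 rises among all tested loci. Neither is thus a result about the high-number loci. Among all 487, 5 loci had no read at the younger ages and at least 1 FPKM in each older library. They were MSTRG.405255, MSTRG.410335, MSTRG.412304, MSTRG.412831 and MSTRG.413217, and they are 1.03% of the high-number loci, where 1.50% of all listed loci had this course.

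Of the 42 falls, 1 left no read in the 5 older libraries. Beside MSTRG.408422 and MSTRG.414056, given above, MSTRG.412865 (1346 bases) stood at 12.6, 29.99 and 69.9 FPKM in prepuberty and 3.96 and 2.90 in puberty libraries, with 6.15, 4.31 and 3.69 in neonatal and 3.57, 8.19 and 6.53 in postpuberty. Its prepuberty libraries lay above all others and differed 5-fold or more among themselves. The fall at puberty was 10.9-fold (log2 change -2.82, SE 0.54, limma adjusted p = 0.000789). MSTRG.409423 (367 bases) stood at 2.39, 16.4 and 4.56 FPKM in neonatal libraries, 7.73, 10.1 and 4.08 in prepuberty, 0.689 and 0 in puberty and 0.628, 0.484 and 0.180 in postpuberty. It fell 21.3-fold (limma adjusted p = 0.00175), with the younger and older libraries apart.

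Across the 42 falls the median mean went from 3.39 FPKM in prepuberty to 0.412 in puberty and 0.476 in postpuberty. At 41 of the 42 the libraries of the 2 ages did not overlap, which the call itself favours, the exception being MSTRG.413732. Of the 42, 29 were also called lower in postpuberty than in neonatal libraries, and MSTRG.413732 was called higher. The matching count for the 1681 falls among all tested loci is not given here. The median implied length was 2180 bases for the falls and 1076 bases for the rises.

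**Figure D4:**
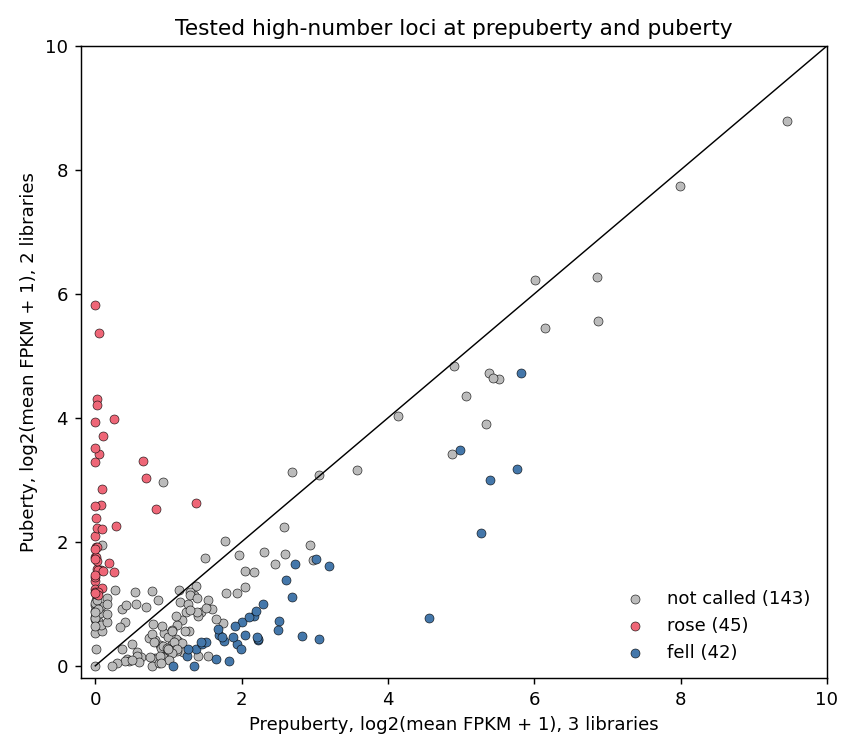
Mean level at puberty (2 libraries) against mean level at prepuberty (3 libraries), both as log2(mean FPKM + 1), for the 230 tested high-number loci; the line marks equal levels. Most of the 45 rises (red) stand at the left edge, near 0 before puberty, while the 42 falls (blue) lie below the line and most keep some signal.

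From puberty to postpuberty, 4 of the 230 tested high-number loci rose (1.74%, where 1.26% of all tested loci were called higher) and 1 fell (0.435%, where 0.139% were called lower). Rises were 80.0% of these calls, against 66.7% after median of ratios scaling (4 rises, 2 falls) and every call after quantile normalization or as TPM (2 rises, 0 falls in each). MSTRG.412303 (2180 bases) had 4 reads over the neonatal and 2 over the prepuberty libraries, 4.43 and 4.05 FPKM in puberty and 13.9, 7.06 and 16.8 in postpuberty. It was the only tested high-number locus that rose at both of the last steps, 2.97-fold at the latter (limma adjusted p = 0.0126). Of all tested loci, 60 rose at both with no call at prepuberty. MSTRG.413917 (6178 bases) had 0.636 and 1.36 FPKM in puberty and 2.86, 3.63 and 5.15 in postpuberty, 3.89-fold more (limma adjusted p = 0.00622). MSTRG.409116 (2055 bases) had 0.588 and 0.719 and then 1.77, 3.41 and 3.44, 4.40-fold more (limma adjusted p = 0.00591).

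MSTRG.413616 (9550 bases) stood at 0.832 and 1.45 FPKM in puberty and 3.31, 3.53 and 4.68 in postpuberty libraries, 3.37-fold higher (limma adjusted p = 0.0033). At each of the 4 loci that rose, the postpuberty libraries lay above both puberty libraries, which the call itself favours. The 1 fall was of MSTRG.411412 (301 bases), with no read in the younger libraries, 8.40 and 20.1 FPKM in puberty and 0, 8.27 and 0.329 in postpuberty (limma adjusted p = 0.0425). The nearest libraries, 8.40 and 8.27, came close to overlapping.

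With puberty and postpuberty libraries alone, limma called 0 high-number loci at this step, and 28 of the 230 had an unadjusted p under 0.05. The matching counts over all tested loci are not given here, so neither is a result about the high-number loci. The fall of MSTRG.411412 was lost in 10 of the 11 fits that left out 1 library, all but that without postpuberty replicate 2. The rises counted 7 without puberty replicate 3 and 9 without postpuberty replicate 2, and among the 4, MSTRG.412303 lost its call without puberty replicate 3 (limma adjusted p = 0.0685) and MSTRG.413616 without puberty replicate 2 (change 0.97).

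Over the whole span, 67 high-number loci were higher in postpuberty than in neonatal libraries (29.1% of those tested, where 37.6% of all were called higher) and 47 were lower (20.4%, where 17.7% were called lower). Among loci with gene-number identifiers, 26.1% of those tested were called higher and 23.0% lower. The loci with the largest rises were MSTRG.405255, MSTRG.409131, MSTRG.408154 and MSTRG.410845, all without a neonatal read. Among the largest falls, MSTRG.408867 fell 73.0-fold (log2 change -4.05, SE 0.31, limma adjusted p = 5.05e-07). MSTRG.406982, with the longest implied length (48100 bases), stood at 4.50, 5.17 and 6.73 FPKM in neonatal libraries, 7.05, 5.89 and 5.37 in prepuberty, 0.506 and 0.299 in puberty and 0.211, 0.222 and 0.229 in postpuberty. It rested on 15520 reads in neonatal and 985 in postpuberty libraries and fell 24.8-fold over the span (limma adjusted p = 9.81e-08), most of it at puberty. The share of rises among the calls was 58.8%, against 73.1% after median of ratios scaling (79 rises, 29 falls) and 39.3% after quantile normalization (46 rises, 71 falls).

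**Figure D5:**
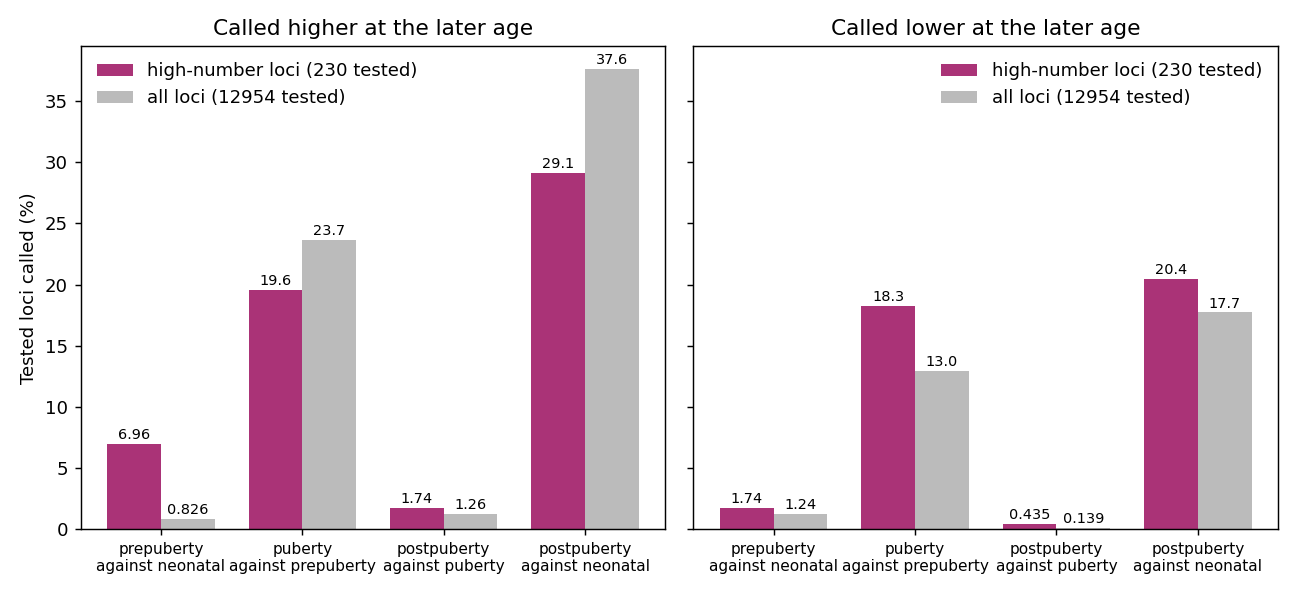
Share (%) of tested loci called higher (left) or lower (right) at the later age in each comparison, for the 230 tested high-number loci and for all 12954 tested loci, with the value printed above each bar. The bars at prepuberty differ most in ratio, 6.96% against 0.826% called higher, and the rises of the whole span stand at 29.1% against 37.6%.

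By the F test over the 4 ages, 132 of the 230 changed (57.4%, where 65.3% of all tested loci were called). Their highest mean was in neonatal at 40, in prepuberty at 30, in puberty at 13 and in postpuberty at 49. Prepuberty was the highest age of 22.7% of the called high-number loci and of 9.50% of all called loci, and postpuberty of 37.1% and 55.2%. In the 10000 numbers below the cut the shares were 17.2% and 18.9%, and among loci with gene-number identifiers 19.8% and 37.0%. Both shares in the gene-number loci were thus nearer to those of the high-number loci than to those of the whole table, with no test of the difference.

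Each age of highest mean had its own leading loci. For neonatal they were MSTRG.408867, given above, MSTRG.406405 and MSTRG.405837. MSTRG.406405 went from 9.11 ± 1.54 and 7.11 ± 0.967 FPKM (SD, n = 3 each) at the younger ages to 2.29 ± 0.269 (n = 2) and 2.13 ± 0.0672 (n = 3), and MSTRG.405837 went from 8.52 ± 0.559 to 5.62 ± 0.556, 2.12 ± 0.0415 and 2.45 ± 0.195. For prepuberty they were MSTRG.407276, MSTRG.411466 and MSTRG.406978, all described above. For puberty they were MSTRG.407039, MSTRG.411412 and MSTRG.409610. MSTRG.409610 (384 bases) had 1 read in the 6 younger libraries, 8.48 and 10.8 FPKM in puberty and 3.75, 8.70 and 6.62 in postpuberty. For postpuberty they were MSTRG.405255, MSTRG.412966 and MSTRG.409131. MSTRG.412966 (4079 bases) stood at 2.82, 1.89 and 4.82 FPKM in neonatal libraries, 70.6, 15.9 and 32.5 in prepuberty, 17.7 and 10.2 in puberty and 7.32, 48.7 and 63.4 in postpuberty, with each later library above the neonatal ones.

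Neighbours in the numbering could be compared only by number, since no positions were at hand. Of the 59 pairs with consecutive numbers, 18 had both loci tested. Both were called the same way in 2 pairs at prepuberty, 2 at puberty, 0 at postpuberty against puberty and 4 over the span. Only 1 locus of the pair was called in 0, 7, 2 and 9 pairs in these comparisons. In none of the 4 comparisons was a pair called in opposite ways (0 pairs). Matching counts for consecutive numbers in the rest of the table are not given here. The pair counts are thus not a result about the high-number loci. MSTRG.410845 and MSTRG.410846 had no neonatal read and both rose at prepuberty, with 4.17, 0.903 and 1.97 FPKM for MSTRG.410846. MSTRG.413732 and MSTRG.413733 both rose at prepuberty and fell at puberty, the former from 12.0, 2.93 and 9.56 to 3.23 and 0.898 FPKM and the latter from 50.5, 19.4 and 53.0 to 5.73 and 8.22. MSTRG.412303 and MSTRG.412304 both rose at puberty. These pairs were picked after their values were seen, and the loci of a pair may share a transcript or reads.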

How the data were processed

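The authors deposited 1 table of FPKM values per library, without header, for 24116 loci. HISAT2 2.1.0 and StringTie 2.1.1 are named in the submitters' processing notes, while build, annotation and counter were not given in the sources used here. Per the labels' protocols, TRIzol was used for extraction and a long non-coding RNA kit for the libraries. Puberty replicate 1 was not analysed here. Library totals, reads and lengths were computed from whole-read steps in the FPKM values (within 0.02 reads); where all counts share a factor, an implied length is too short.

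In R 4.3.3, limma 3.58.1 was run on log2(FPKM + 1) with a variance trend, 1 mean per age over 11 libraries (7 residual degrees of freedom), two-sided, with Benjamini-Hochberg adjustment over the 12954 loci that reached FPKM 1 in 2 or more libraries. A call needed adjusted p under 0.05 and a log2 change (F test: range of means) of at least 1. The fit was tested on simulated data with the same dispersion set at every locus. That test does not cover loci with a wide spread within an age. The high-number loci and the lists were chosen with earlier results of these data known. The text names the 10 loci of highest mean, up to 4 largest rises and falls per comparison, the leading loci per age of highest mean, the loci at the edges of the rule, and MSTRG.407276 and MSTRG.414056; others were chosen after their values were seen. Tables are not sorted by number, so neighbours were taken by number. Alternatives were another pseudocount, other filters, 3 other scalings, no trend, a replicate block, fits to 2 ages, leaving out each library, and voom on recovered reads, which was added after seeing the data.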

Additional observations from a re-analysis of the deposited data

How the results depend on the processing

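Counts are of high-number loci called. At prepuberty against neonatal, the 16 rises became 31 as TPM and 1 with 2 ages alone, and the 4 falls became 8 with a pseudocount of 0.1, 1 after median of ratios scaling, 1 after quantile normalization and 0 with 2 ages alone. At puberty against prepuberty, the 45 rises became 70 with a pseudocount of 0.1, 72 as TPM and 71 by voom, and the 42 falls became 78, 68 and 77 in these fits, 20 after median of ratios scaling and 68 after quantile normalization. At postpuberty against puberty, the 4 rises became 2 with a pseudocount of 0.1, 2 after quantile normalization, 2 as TPM, 1 by voom and 0 with 2 ages alone, and the 1 fall became 0 in these 5 fits, without a filter and with the replicate block, and 2 after median of ratios scaling. Over the whole span, the 67 rises became 106 as TPM, and the 47 falls became 80 with a pseudocount of 0.1, 29 after median of ratios scaling, 71 after quantile normalization and 82 by voom. The cause of these moves was not tested.

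Without 1 library at a time, rises ranged from 10 to 16 and falls from 3 to 6 at prepuberty, rises from 41 to 57 and falls from 40 to 44 at puberty, rises from 4 to 9 and falls from 0 to 2 at postpuberty against puberty, and rises from 61 to 70 and falls from 45 to 54 over the span. The F test called 128 to 146 loci against 132. Of 31 pairs of a named locus and a comparison, 16 kept their call under every alternative run.

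Over all tested loci the median log2 change at puberty was 0.26 as deposited, 0.55 after median of ratios scaling, -0.01 after quantile normalization and 0.91 as TPM. Over the span it was 0.50, 0.77, 0.07 and 1.92.

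Replicate numbers are shared by ages. Libraries with the same number had correlations of deviations from -0.12 to 0.05 (15 pairs, median -0.0090). Those with different numbers had -0.08 to 0.12 (30 pairs, median 0.0033). Same-number libraries were thus not more alike over the tested loci. Deviations within an age sum to 0, which ties these values to each other, and whether the numbers mark anything shared was not tested. With the replicate block, 14 rises and 4 falls were called at prepuberty, 48 and 41 at puberty, 4 and 0 at postpuberty against puberty and 67 and 48 over the span.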
